A study of Mus musculus with 8 samples.

Results

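The transcripts described here are 40 genes of the Myc network and of ribosome biogenesis, measured in PER-M60, a mouse leukaemia cell line. They were chosen by name (Myc network, nucleolar and RNA polymerase I genes) and found by matching Ensembl gene IDs to symbols. The matching used no measured value, but the list of names was drawn up with earlier results of these data known. All 40 were among the 21859 gene IDs of the count table, and all 40 were among the 10729 genes with enough counts to test. One group of 4 cultures was grown in control media and the other group of 4 in osteoclast-conditioned media, meaning medium taken from osteoclasts (bone-resorbing cells). Each culture gave 1 RNA sequencing library, both groups are the same cell line, and no genotype, time or dose is given in the labels. The comparison asks how the leukaemia cells' transcripts differ between the media.

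Myc is a transcription factor that binds DNA as a dimer with Max, at the E-box letters CACGTG, and drives growth genes in many normal and leukaemic blood cells. Mxd4, Mxi1 and Mnt also pair with Max at these letters and recruit repressors, so they are known as antagonists of Myc. Ribosome biogenesis, a well-known output of Myc, starts in the nucleolus. There RNA polymerase I makes the long ribosomal RNA precursor, small nucleolar ribonucleoproteins (snoRNPs) modify it, and assembly factors fold and cut it into the small and the large subunit.

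Total counts were 15391754 to 21637966 per sample, and 13039 to 13300 genes had at least 1 count. No member was near the detection limit: the lowest count of any member in any sample was 595, and members summed to 5441 to 430946 counts over the 8 samples. A floor of 3 counts corresponded to 0.138 to 0.194 CPM, the usual unit of counts relative to library size. Levels below are normalised CPM, which also correct for differences in library composition. They are shares of a library, so total RNA per cell was not measured. The 40 members together took 1.36% ± 0.035 of all counts in control medium (SD, n = 4) and 1.32% ± 0.015 in osteoclast-conditioned medium (SD, n = 4).

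In osteoclast-conditioned medium, 17 of the 40 members (42.5%) passed the test, with 4 higher and 13 lower. The test was edgeR's quasi-likelihood test with p-values adjusted over all 10729 genes (Benjamini-Hochberg) and a threshold of 0.05. The background share was 30.5% of all tested genes, 15.7% higher and 14.8% lower. Among the 5331 tested genes whose mean CPM lay in the members' own range, 40.2% passed, 22.4% higher and 17.8% lower. Against that second background, the members' total share was close (42.5%), their share of lower genes was larger (32.5%) and their share of higher genes was smaller (10%). These shares describe the list and were not tested. The genes that rose were Mxd4, Polr1a, Mnt and Utp20, and those that fell were Nop10, Gnl3, Nop56, Ddx18, Noc4l, Rrp9, Nolc1, Bop1, Nop2, Myc, Max, Polr1b and Rrp1b.

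The changes were small. Among the 17 called members the median absolute log2 fold change was 0.129, and 16 of them differed by less than 1.2-fold. The exception was Mxd4, which was 1.38-fold higher and was also the only member called when the test was made against a 1.2-fold change, a test that called 227 of all genes. The median log2 fold change over all 40 members was -0.01, with 18 estimates above 0 and 22 below, and over all tested genes it was also -0.01. For 16 of the 40 members the 4 control values and the 4 conditioned-medium values did not overlap, as was so for 28.2% of all tested genes. These were 15 of the called members, the exceptions being Myc and Utp20, and Npm3, which did not pass the test. For the 23 members that did not pass, the estimates lay between -0.06 and 0.08 on the log2 scale and their 95% intervals stayed within -0.148 to 0.168, that is, 0.903-fold to 1.12-fold. In bulk RNA, fewer cells carrying a transcript and less of it per cell cannot be told apart.

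**Figure D1:**
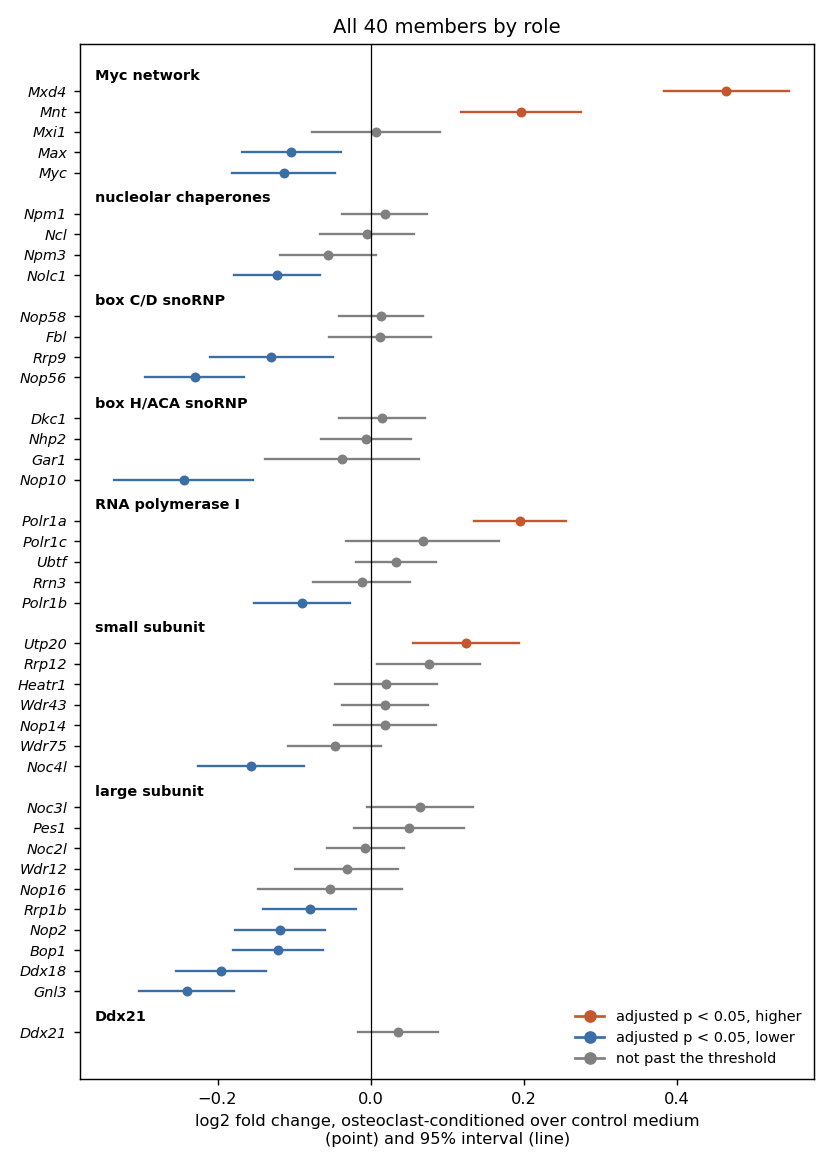
Log2 fold change of each of the 40 members, osteoclast-conditioned over control medium, with its 95% interval from the edgeR fit, grouped by role; colour marks the 17 past an adjusted p of 0.05. Mxd4 stands to the right at 0.46, 13 members lie to the left of 0 with intervals that exclude it, and the large subunit group holds 5 of those 13.

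In the Myc network, the antagonists Mxd4 and Mnt rose while Myc and its partner Max fell, and Mxi1 did not pass the test. Mxd4 (chr5:34173883-34187720 on GRCm38, minus strand) measured 110.7, 109.9, 97.6 and 111.7 CPM in control replicates 1 to 4 and 142.4, 143.8, 152.4 and 155.9 CPM in conditioned-medium replicates 1 to 4. Every conditioned-medium sample was above every control sample, and the mean went from 107 ± 6.66 to 149 ± 6.56 CPM (SD, n = 4 each). On the log2 scale this was a rise of 0.46 (SE 0.04, adjusted p = 4.15e-09 in edgeR), the largest of the 40 members in absolute size. Mnt, an antagonist present in most cell types, rose from 63.9 ± 1.85 to 73.1 ± 3.00 CPM (SD, n = 4 each). Its control values ran from 61.4 to 65.7 CPM and its conditioned-medium values from 70.7 to 77.2 CPM, without overlap (log2 fold change 0.20, SE 0.04, edgeR adjusted p = 0.000201). Mxi1 measured 60.8 ± 2.67 and 61.0 ± 2.55 CPM (SD, n = 4 each), with a log2 fold change of 0.01 and a 95% interval of -0.08 to 0.09.

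Myc itself (chr15:61985391-61990374, plus strand) measured 829, 758, 812 and 840 CPM in control replicates 1 to 4 and 776, 726, 718 and 774 CPM in conditioned-medium replicates 1 to 4. Control replicate 2 lay below conditioned-medium replicates 1 and 4, so the groups overlapped through that 1 sample. The mean fell from 810 ± 36.5 to 748 ± 30.9 CPM (SD, n = 4 each). The edgeR estimate was -0.11 on the log2 scale (95% interval -0.18 to -0.05, adjusted p = 0.00996). The direction was the same with any sample left out, but the call was not. The edgeR adjusted p for Myc was 0.0537 without control replicate 1, 0.06 without control replicate 4, 0.0585 without conditioned-medium replicate 2 and 0.0501 without conditioned-medium replicate 3. Max, the obligate partner of Myc and of the antagonists, fell from 144 ± 4.97 to 134 ± 3.34 CPM (SD, n = 4 each), with 139 to 149 CPM in control and 130 to 137 CPM in conditioned medium. Its log2 fold change was -0.10 (SE 0.03, edgeR adjusted p = 0.0124), and the adjusted p for Max was 0.0623 without control replicate 4 and 0.0692 without conditioned-medium replicate 2.

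**Figure D2:**
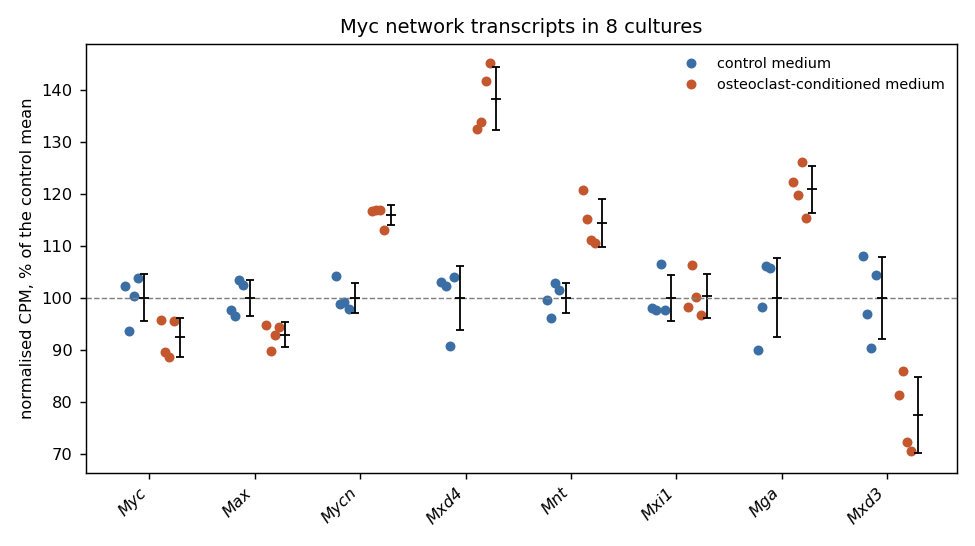
Normalised CPM of 8 Myc network genes in each sample as a percent of that gene's control mean (points), with the group mean and SD beside them (n = 4 each). All Mxd4, Mnt, Mycn and Mga points of conditioned medium lie above their control points, Mxd3 lies below, and the Myc groups overlap.

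Of 10 further network genes, 8 were tested, of which 2 rose and 2 fell. This was 50% called, against 30.5% of all tested genes and 40.2% of genes in the members' range of mean CPM. Per kilobase of exon, Myc was the most abundant of the network, at 298 ± 13.4 CPM per kilobase (RPKM) in control and 275 ± 11.4 RPKM in conditioned medium (SD, n = 4 each). Its paralog Mycn stood at 26.8 and 31.1 RPKM and rose by 0.21 on the log2 scale (SE 0.03, adjusted p = 8.51e-06 in edgeR), with no overlap between groups. Mycl, the third paralog, had 75 counts over all 8 samples and was too low to test. Max was at 40.1 RPKM in control, above Mxd4 (12.7 RPKM), Mnt (13.8 RPKM), Mga (9.25 RPKM), Mxi1 (8.91 RPKM), Mxd3 (3.35 RPKM) and Mxd1 (2.97 RPKM). In conditioned medium Mxd4 was at 17.5 ± 0.773 RPKM and Mnt at 15.8 ± 0.648 RPKM (SD, n = 4 each). The order of Mxd4 and Mnt depends on the length used: per kilobase of the longest protein-coding transcript, Mxd4 was above Mnt in both media (27.8 and 13.9 RPKM in control, 38.4 and 15.9 RPKM in conditioned medium). Mga, a Max partner with a second DNA-binding domain, rose with a log2 fold change of 0.28 (edgeR adjusted p = 0.000243), and the antagonist Mxd3 fell with -0.37 (SE 0.10, edgeR adjusted p = 0.00483). Mycbp, a Myc-binding protein, fell from 21.8 ± 0.672 to 18.0 ± 0.222 CPM (SD, n = 4 each, log2 fold change -0.27, SE 0.06, edgeR adjusted p = 0.000505).

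Because Myc, Max and the antagonists all read the E-box, the promoters of the members were searched for CACGTG, which reads the same on both strands. RefSeq promoters (GRCm38.p6, 250 bases before to 50 after the start) were found for 35 of the 40 members (46 promoters, since a gene can have several), and those of Myc, Npm1, Fbl, Rrp12 and Bop1 were not matched. A gene was counted when any of its promoters held the motif. This was so for 8 of these 35 members (22.9%), for 12.1% of the 8547 tested genes with a promoter and for 8.09% of all 27025 genes in the promoter table. The motif was in 3 of the 4 members that rose, 2 of the 11 that fell and 3 of the 20 that did not pass. A match describes these letters and is not evidence of binding, and no test was made. The windows below show the letters around each match, E-box in capitals, in the direction of the gene. The first 3 belong to members that rose, the next 2 to members that fell and the last 4 to members that did not pass.
Mxd4, chr5:34187912-34187941, minus strand, 219 bases before the start: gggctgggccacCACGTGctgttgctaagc
Mnt, chr11:74830789-74830818, plus strand, 123 bases before the start: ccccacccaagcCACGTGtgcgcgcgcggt
Utp20, chr10:88826765-88826789, minus strand, 37 bases after the start: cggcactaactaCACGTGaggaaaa
Max, chr12:76962234-76962263, minus strand, spanning the start: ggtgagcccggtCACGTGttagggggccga
Nop2, chr6:125131811-125131840, plus strand, 60 bases before the start: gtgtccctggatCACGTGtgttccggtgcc
Rrn3, chr16:13780472-13780501, plus strand, 215 bases before the start: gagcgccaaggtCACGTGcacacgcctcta
Rrn3, chr16:13780639-13780668, plus strand, 48 bases before the start: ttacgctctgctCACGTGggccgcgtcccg
Wdr43, chr17:71616220-71616249, plus strand, 17 bases after the start: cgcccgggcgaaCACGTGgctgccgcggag
Pes1, chr11:3963965-3963994, plus strand, 2 bases after the start: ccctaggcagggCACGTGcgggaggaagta

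For the antagonists Mxd4 and Mnt, the members of the network that rose, the full 250 bases before the start place that E-box in its surroundings, again with the motif in capitals.
Mxd4 upstream, chr5:34187711-34187960, minus strand: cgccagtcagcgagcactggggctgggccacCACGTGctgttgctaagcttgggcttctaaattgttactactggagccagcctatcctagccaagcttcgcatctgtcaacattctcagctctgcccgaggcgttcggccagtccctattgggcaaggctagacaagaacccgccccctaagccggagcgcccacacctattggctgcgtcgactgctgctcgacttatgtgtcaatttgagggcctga
Mnt upstream, chr11:74830674-74830923, plus strand: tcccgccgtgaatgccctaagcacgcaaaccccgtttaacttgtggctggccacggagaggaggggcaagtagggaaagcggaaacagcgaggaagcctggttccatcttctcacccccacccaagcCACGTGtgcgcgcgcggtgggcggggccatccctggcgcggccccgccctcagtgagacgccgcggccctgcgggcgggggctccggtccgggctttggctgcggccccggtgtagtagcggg

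Of the 35 ribosome biogenesis members, 2 rose and 11 fell. Their called share of 37.1% lay between that of all tested genes (30.5%) and that of genes in the members' range of mean CPM (40.2%). Nucleolar chaperones, which carry and fold ribosomal proteins and RNA, had 1 of 4 members lower and none higher. Nucleolin (Ncl) measured 3008 ± 148 and 2998 ± 75.2 CPM, and nucleophosmin (Npm1) 2308 ± 74.6 and 2338 ± 58.8 CPM (SD, n = 4 each). Their 95% intervals were -0.07 to 0.06 and -0.04 to 0.07 on the log2 scale. Npm3, a relative of Npm1, measured 113.7 to 116.9 CPM in control and 108.5 to 113.1 CPM in conditioned medium and did not pass (log2 fold change -0.06, edgeR adjusted p = 0.176). Nolc1, a chaperone of snoRNPs, was the member that fell, from 567 ± 20.2 to 520 ± 10.1 CPM (log2 fold change -0.12, SE 0.03, edgeR adjusted p = 0.000986).

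Box C/D snoRNPs guide methylation of ribosomal RNA, and 2 of their 4 members fell. Lower genes made up 14.8% of all tested genes and 17.8% of those in the members' range of mean CPM. Nop56 (chr2:130274430-130279313, plus strand), a core scaffold protein, measured 382, 355, 398 and 380 CPM in control replicates 1 to 4 and 316, 324, 315 and 337 CPM in conditioned-medium replicates 1 to 4. All conditioned-medium values were below all control values (log2 fold change -0.23, SE 0.03, edgeR adjusted p = 2.05e-06). Nop58, the scaffold protein that pairs with Nop56, measured 348 ± 8.54 and 351 ± 7.72 CPM (log2 fold change 0.01), and the methyltransferase fibrillarin (Fbl) 279 ± 16.4 and 281 ± 2.64 CPM (log2 fold change 0.01). Rrp9, specific to the U3 particle that acts in small subunit processing, fell from 55.9 ± 0.927 to 51.0 ± 1.32 CPM (log2 fold change -0.13, edgeR adjusted p = 0.0118).

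Box H/ACA snoRNPs guide pseudouridylation and share their core with telomerase. Of the 4 core proteins 1 fell, where 14.8% of all tested genes and 17.8% of genes in the members' range of mean CPM were lower. Nop10 (chr2:112261926-112263269, plus strand) measured 58.9, 53.2, 59.3 and 53.1 CPM in control replicates 1 to 4 and 46.8, 46.2, 47.1 and 49.0 CPM in conditioned-medium replicates 1 to 4. The groups did not overlap, and control replicates 2 and 4 lay closest to the conditioned-medium samples (log2 fold change -0.24, SE 0.04, edgeR adjusted p = 7.8e-05). Dkc1, the pseudouridine synthase, was at 292 ± 9.44 and 295 ± 4.36 CPM, Gar1 at 77.4 ± 6.74 and 75.2 ± 2.53 CPM and Nhp2 at 162 ± 2.98 and 161 ± 2.90 CPM (SD, n = 4 each). None of these 3 passed the test, with log2 fold changes of 0.02, -0.04 and -0.01. Whether the change of Nop10 differs from theirs was not tested.

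RNA polymerase I showed 1 of 5 members higher and 1 lower. This share of 40% was close to that of genes in the members' range of mean CPM (40.2%), and 30.5% of all tested genes were called. Polr1a, the largest subunit and part of the catalytic centre, measured 176.7 to 190.9 CPM in control and 203.0 to 214.0 CPM in conditioned medium, and rose without overlap of the groups (log2 fold change 0.20, SE 0.03, edgeR adjusted p = 6.88e-06). Polr1b, the second catalytic subunit, fell from 109.5 ± 1.12 to 102.9 ± 1.18 CPM (log2 fold change -0.09, SE 0.03, edgeR adjusted p = 0.0253). That call depended on single samples: the adjusted p for Polr1b was 0.0644 without control replicate 4, 0.0559 without conditioned-medium replicate 2, 0.0567 without replicate 3 and 0.0637 without replicate 4, and 0.0579 in DESeq2. Ubtf, which holds ribosomal DNA open for transcription, measured 420 ± 8.97 and 430 ± 5.35 CPM, and Rrn3, the growth-regulated factor that brings the polymerase to the promoter, 123 ± 3.74 and 122 ± 1.52 CPM (SD, n = 4 each). Neither passed (log2 fold changes 0.03 and -0.01). Polr1c, a subunit shared with RNA polymerase III, did not pass either, at 0.07 (edgeR adjusted p = 0.311).

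Of the 7 small subunit factors, 1 rose and 1 fell. This was 28.6% called, below the 30.5% of all tested genes and the 40.2% of genes in the members' range of mean CPM. Utp20, a very large scaffold protein of the small subunit precursor, measured 152 to 167 CPM in control and 166 to 184 CPM in conditioned medium, overlapping at the edge, and rose by 0.12 on the log2 scale (SE 0.03, adjusted p = 0.00521 in edgeR). Noc4l, which acts with Nop14, fell from 152 ± 7.07 to 137 ± 5.08 CPM (log2 fold change -0.16, SE 0.03, edgeR adjusted p = 0.000703), and Nop14 itself measured 200.1 ± 11.3 and 202 ± 3.22 CPM with a log2 fold change of 0.02. Heatr1, Wdr43 and Wdr75, which link RNA polymerase I transcription to processing, had log2 fold changes of 0.02, 0.02 and -0.05 and did not pass. Rrp12, which acts in export of the precursor, had 0.08 (edgeR adjusted p = 0.0828), and passed only with control replicate 3 left out (edgeR adjusted p = 0.0374).

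Of the 10 large subunit factors, the class with the most members, 5 fell and none rose, where 14.8% of all tested genes and 17.8% of genes in the members' range of mean CPM were lower. Gnl3 (nucleostemin, chr14:31012433-31019152, minus strand), a nucleolar GTPase abundant in stem and tumour cells, measured 276, 262, 279 and 279 CPM in control replicates 1 to 4 and 228, 230, 224 and 246 CPM in conditioned-medium replicates 1 to 4. The highest conditioned-medium sample, replicate 4, was still below the lowest control, replicate 2 (log2 fold change -0.24, SE 0.03, edgeR adjusted p = 3.78e-07). Ddx18, an RNA helicase of early large subunit precursors, measured 153 to 160 CPM in control and 135 to 140 CPM in conditioned medium, and fell without overlap of the groups (log2 fold change -0.20, SE 0.03, edgeR adjusted p = 4.67e-06). Nop2, a methyltransferase of the large subunit RNA, fell with a log2 fold change of -0.12 (edgeR adjusted p = 0.00216).

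Bop1, Pes1 and Wdr12 form 1 complex needed for large subunit RNA processing. Bop1 fell from 176 ± 5.12 to 162 ± 1.06 CPM (log2 fold change -0.12, edgeR adjusted p = 0.00167), while Pes1 (0.05) and Wdr12 (-0.03) did not pass, and the difference between them was not tested. Rrp1b fell by 0.08 on the log2 scale (edgeR adjusted p = 0.0414). The adjusted p for Rrp1b was 0.0728 without control replicate 1, 0.174 without control replicate 4, 0.0999, 0.108 and 0.112 without conditioned-medium replicates 1, 2 and 3, and 0.0771 in DESeq2. Nop16, Noc2l and Noc3l had log2 fold changes of -0.05, -0.01 and 0.07 and did not pass. Ddx21, a helicase that couples ribosomal RNA and ribosomal protein gene transcription, stands outside these classes and measured 748 ± 16.3 and 767 ± 14.4 CPM (log2 fold change 0.04, edgeR adjusted p = 0.315).

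**Figure D3:**
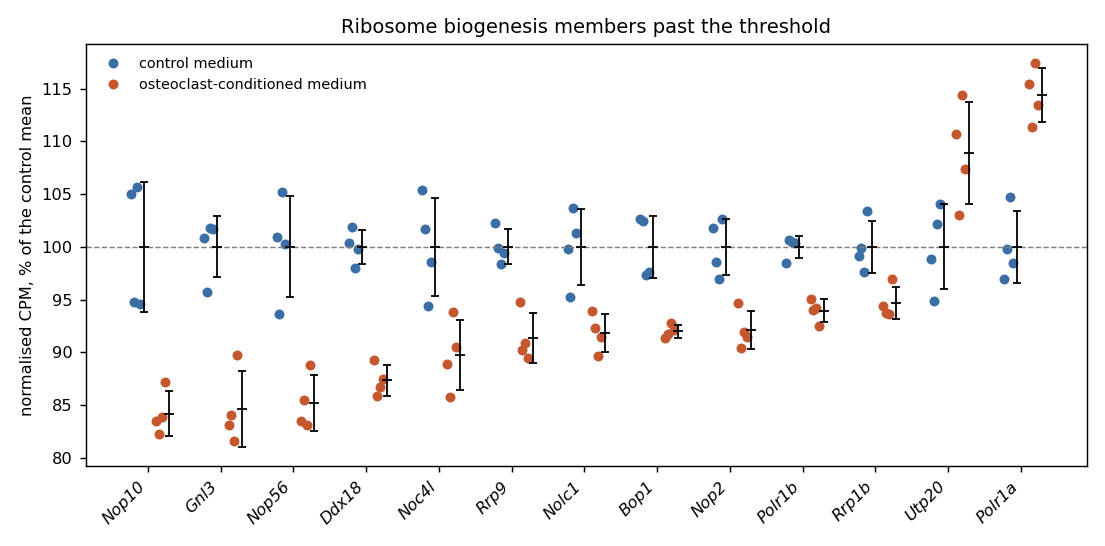
Normalised CPM of the 13 ribosome biogenesis members past the threshold, each sample as a percent of the gene's control mean (points), with group mean and SD (n = 4 each). The 11 that fell sit left, with all their conditioned-medium points below the control mean, and Utp20 and Polr1a, at the right, lie above it.

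Per kilobase of exon, the members spanned a wide range of levels. Npm1 was highest at 872 RPKM averaged over the 8 samples, followed by Ncl (295 RPKM), Myc (287 RPKM), Noc2l (167 RPKM) and Ddx21 (146 RPKM). With these lengths, Ncl and Myc did not differ beyond their spread in control (295 ± 14.5 and 298 ± 13.4 RPKM, SD, n = 4 each). That likeness rests on the summed exon lengths, 10188 bases for Ncl and 2717 for Myc. In CPM, Ncl was at 3008 and Myc at 810 in control. A shorter expressed transcript would place Ncl higher per kilobase, and which transcripts were expressed was not measured. The lowest were Wdr12 (7.96 RPKM) and Mxi1 (8.93 RPKM). These levels use the summed exon length of a gene, and with the length of the longest protein-coding transcript instead the leading 3 were the same, while Fbl went from rank 14 to rank 4 (66.5 to 234 RPKM) and Gnl3 from rank 21 to rank 10 (41.5 to 130 RPKM). Noc2l shares 20.9% of its exonic bases with the neighbouring gene Samd11, so its reads and those of Samd11 may not be separable.

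**Figure D4:**
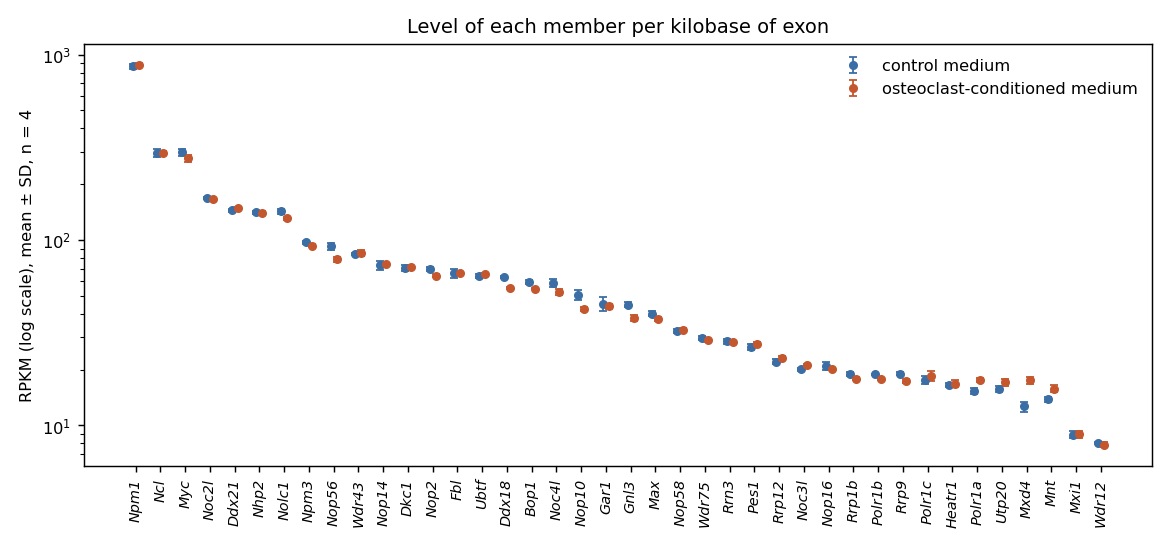
Level of each of the 40 members in RPKM (log axis), mean and SD of 4 samples per medium, ordered from the highest to the lowest mean. Npm1 leads at 872 RPKM, and Ncl and Myc follow at nearly the same height with the summed exon lengths used here. The media differ by little at each gene compared with the range between genes.

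Further ribosome biogenesis genes were called about as often as all tested genes (30.7% against 30.5%), but more of them fell than rose. Of 101 tested, 8 rose and 23 fell, where 15.7% of all tested genes were higher and 14.8% lower, with a median log2 fold change of -0.06 and 76 of 101 estimates below 0. Among the other large subunit factors, 4 of 42 rose and 14 fell. The largest changes were in Mdn1, the AAA-type ATPase that remodels the large subunit precursor (0.36), Rpf2, which helps load the 5S particle (-0.23), and the helicase Ddx56 (-0.17). Mdn1 had an edgeR adjusted p of 0.0112, and 0.0616 without control replicate 2 and conditioned-medium replicate 4. Among other small subunit factors, 2 of 38 rose and 8 fell, led by Tbl3 (-0.25), Bysl (-0.16) and Nol11 (-0.15).

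Further RNA polymerase I genes gave 1 call in 10 (10%). This list and the others of this paragraph were each called less often than all tested genes (30.5%, with 15.7% higher and 14.8% lower). Polr1e, another subunit, fell from 43.8 to 36.7 CPM (log2 fold change -0.25, SE 0.05, edgeR adjusted p = 7.92e-05). Polr1d, the partner of Polr1c, measured 148 ± 3.42 and 149 ± 1.86 CPM and did not pass (log2 fold change 0.01, SE 0.03). In the list of snoRNP assembly and nucleolar cofactors, 2 of 11 (18.2%) rose, Nop53 (0.13) and the ribosomal DNA transcription cofactor Tcof1 (0.12), and none fell. The RNA exosome, which trims the precursor, had 3 of 13 (23.1%) lower and none higher, namely Exosc2 (-0.21), Exosc8 (-0.20) and C1d (-0.18). C1d did not pass with counts thinned to the smallest library (edgeR adjusted p = 0.0569) or without control replicate 2 and conditioned-medium replicate 4 (0.0982). RNA polymerase III genes had 3 of 19 higher and 1 lower (21.1% called). Its repressor Maf1 rose by 0.21, the subunit Polr3b by 0.20 and the factor Gtf3c1 by 0.11, and Gtf3c1 had 0.06 (edgeR adjusted p = 0.0759) after an offset for GC content and transcript length.

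Cofactors of Myc changed in both directions. Of 11 tested, 4 rose and 5 fell, where 30.5% of all tested genes and 40.2% of genes in the members' range of mean CPM were called. The 3 largest changes were rises of Huwe1, a ubiquitin ligase of Myc (571 ± 37.0 to 722 ± 41.1 CPM, log2 fold change 0.34), of the acetyltransferase scaffold Trrap (0.29) and of the chromatin remodeller Ep400 (0.22). The 27 other genes listed as Myc targets had 3 higher and 12 lower, with a median of -0.06, where 15.7% of all tested genes were higher and 14.8% lower, with a median of -0.01. Ldha, lactate dehydrogenase A, fell from 1491 ± 100.3 to 1143 ± 40.8 CPM (SD, n = 4 each, log2 fold change -0.38, SE 0.04, edgeR adjusted p = 8.48e-06), and the translation initiation factor Eif4e fell by 0.21 on the log2 scale. The nucleoside transporter Slc29a2 fell by 0.26 (edgeR adjusted p = 0.0327), with overlapping groups and low counts. Its adjusted p was 0.105, 0.128 and 0.0519 without control replicates 1, 2 and 4, and 0.0739 and 0.0968 without conditioned-medium replicates 2 and 3. For Slc29a2 it was also 0.0946 in DESeq2 and 0.16 with counts thinned to the smallest library. Genes that Myc is known to repress had 1 of 6 lower, the cell-cycle inhibitor Cdkn1b (-0.13, edgeR adjusted p = 0.0204), and none higher. The adjusted p for Cdkn1b was 0.0517 and 0.0618 without control replicates 1 and 3 and 0.106 without conditioned-medium replicate 3, and 0.051 in DESeq2.

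Among 13 tested genes of nucleolar stress and p53, 1 rose and 2 fell (23.1% called, where 30.5% of all tested genes were). The other 10 did not pass, among them Cdkn1a (-0.06), Mdm2 (-0.02), Bax (-0.07) and Ccng1 (0.06). Bbc3 (Puma), an inducer of cell death, rose from 6.91 ± 0.407 to 10.3 ± 0.554 CPM (SD, n = 4 each, log2 fold change 0.58, edgeR adjusted p = 5.85e-06), while Mdm4 (-0.19), which restrains p53, and Sesn1 (-0.15), a p53 target, fell. The amino acid response list is shown for scale only, since it too was chosen with earlier results of these data known. Of its 23 tested genes 22 rose and none fell, where 15.7% of all tested genes were higher. Its median log2 fold change was 0.49, against -0.01 for the 40 members.

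Transcript length and fold change moved together. Across all 10725 tested genes with a length, the Spearman correlation across genes of log2 fold change with the longest annotated transcript was 0.20, and across the 40 members it was 0.47. Across the 197 other pathway genes it was 0.12, below that of all genes. Genes are not independent replicates, and all these values come from the same 8 libraries. Of the 8 members between 1 and 2 kb, 3 fell and none rose, where 18.5% of all tested genes of that length were lower and 9.11% higher. Of the 18 members between 2 and 4 kb, 9 fell and none rose, where 16.3% of all were lower and 11.4% higher. Of the 7 members between 4 and 6 kb, 2 rose (Mxd4 at 4.63 kb and Mnt at 4.59 kb) and 1 fell, where 16.7% of all were higher and 13.8% lower. The single members under 1 kb and between 6 and 8 kb did not pass. Of the 5 members between 8 and 12 kb, 2 rose (Polr1a at 9.22 kb and Utp20 at 8.82 kb) and none fell, where 43.8% of all tested genes of that length were higher and 4.96% lower. The other 3 whose longest annotated transcript is of that length, Ncl, Nop58 and Wdr12, did not pass. The longest annotated transcript need not be the one expressed, which counts per gene do not show. With an offset fitted on GC content and transcript length, 17 members were still called, 4 higher and 13 lower, and the log2 fold changes were 0.44 for Mxd4, 0.15 for Polr1a and 0.09 for Utp20. Among the other genes named above, Mdn1 (18.0 kb), Huwe1 (14.6 kb), Mga (13.9 kb), Trrap (12.5 kb) and Ep400 (10.7 kb) are long and rose, while Bbc3, which rose by more than any of these, is 1.81 kb long.

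**Figure D5:**
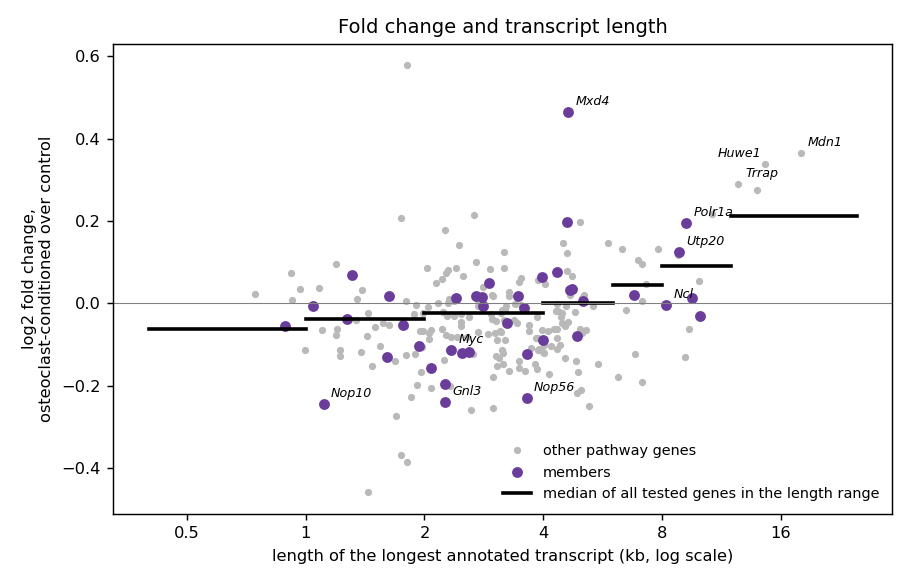
Log2 fold change of the members and of the other pathway genes against the length of the longest annotated transcript (log axis), with black bars for the median of all tested genes in each length range. The bars climb from -0.06 under 1 kb to 0.21 above 12 kb; Polr1a and Utp20 lie above the bar for their length by less than Mxd4 lies above its own, and Nop10, Gnl3 and Nop56 lie below theirs.

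The loci of some members hold features the choice of names did not use. Annotated snoRNA genes lie within 6 of the 40 members on the same strand, 19 in all (Nop56 holds 5, Nop58 4, Ncl, Wdr43 and Gnl3 3 each, and Dkc1 1). Over the count table, 259 of 21780 protein-coding genes (1.19%) hold one, but these include genes too low to test. Of these 6 hosts, Nop56 and Gnl3 fell and the other 4 did not pass, where 14.8% of all tested genes were lower. Transcripts of 10 members have a near-identical stretch (at least 95% over 200 bases) in another annotated gene. Among the called members these were Mxd4 (1 gene, 357 bases), Nop56 (4 genes) and Ddx18 (2 genes), and how the authors counted reads that fit more than 1 place was not given in the sources used here.

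Markers of other cells moved slightly with the medium. Of 16 osteoclast and macrophage markers, 5 were high enough to test, of which 2 rose and 1 fell. Of all tested genes, 15.7% were higher and 14.8% lower. The summed level of the 16 markers was 134.8 to 141.1 CPM in control and 147.2 to 152.5 CPM in conditioned medium. Most of that sum was Nfatc1, which rose from 95.6 to 105.8 CPM, and the other tested markers were Acp5 (22.9 and 24.4 CPM, not called), Itgb3 (12.9 to 10.7 CPM, lower), Lyz2 (4.46 to 5.91 CPM, higher) and Cd68 (2.11 and 2.13 CPM, not called). The remaining 11 markers had few or no counts: over the 8 libraries Tnfrsf11a had 51, Mmp9 26, Csf1r 18, Ctsk 17, Oscar 15, Calcr 7, Adgre1 7 and Atp6v0d2 1, and Ocstamp, Dcstamp and Cd14 were listed at 0. A 0 in this table need not mean that a transcript is absent, since Pno1 and Exosc6, which act in ribosome assembly and RNA decay in all cells, were also listed at 0. Of 12 B-lineage markers, 10 were tested, 7 rose and 1 fell (80% called, where 30.5% of all tested genes were). The 12 summed to 4619 to 4651 CPM in control and 4919 to 4957 CPM in conditioned medium, and Rag1 and Rag2 were listed at 0. Of 10 stroma and osteoblast markers, 2 were high enough to test, of which 1 rose and 1 did not pass, and 4 were listed at 0. The 10 summed to 291.5 to 295.8 CPM in control and 304.3 to 316.7 CPM in conditioned medium, a sum that rests on few genes. T, NK and erythroid markers stayed under 1 CPM in sum. The part of these differences in the members' values was not tested.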

How the data were processed

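RNA sequencing of 8 PER-M60 cultures was analysed, 4 in control and 4 in osteoclast-conditioned media, grouped by sample titles. The RNeasy Plus Mini Kit and the SureSelect HS2 library kit were used, per the labels' protocols. Per the submitters' processing notes, STAR 2.7.5a, featureCounts 2.0.1 and mm10 were used; the annotation, strand, multi-mapping and molecular barcode settings are not given in the sources used here. The deposited values are whole-number counts per Ensembl gene ID, not normalised by the authors.

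Of 21859 gene IDs, 21817 matched GENCODE M21 (GRCm38), which gave symbols, positions and lengths. Counts were tested with edgeR 4.0.16 (R 4.3.3): filterByExpr defaults (10729 genes), TMM scaling, robust glmQLFit with medium as the term, glmQLFTest, Benjamini-Hochberg adjustment over all tested genes and a threshold of 0.05. Standard errors come from the F statistic and intervals are at 95%. The common biological coefficient of variation was 0.0304. CPM are TMM-scaled, and RPKM divide them by summed exon length. Near-identical transcripts were found with blastn 2.17.0. The fit was tested on simulated data.

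The members and the lists were chosen with earlier results of these data known. Values per sample were given for Myc and for called members with an absolute log2 fold change of at least 0.2. From each list, up to 3 called genes with the largest change were named, and Mycn, Mycl and Polr1d whatever their result. Alternatives were other scalings, filters, thresholds and tests (DESeq2 1.42.0, limma-voom from limma 3.58.1, a 1.2-fold test), a GC and length offset, thinning, the replicate number as a block, and leaving out samples. Leaving out control replicate 2 and conditioned-medium replicate 4 together, and the coding-transcript length for RPKM, were chosen after seeing the data. The labels do not say whether equal replicate numbers share a batch. Same-number correlations were low (-0.029, 0.086, -0.051 and 0.143, mean 0.037, against -0.013 for different numbers), which does not settle whether samples were paired.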

Additional observations from a re-analysis of the deposited data

Results flagged for a closer look

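Each of 70 named genes was looked at in both groups (140 groups of 4 samples), and 8 groups held 1 sample that stood apart from the other 3, where chance gives about 7. Mxd4 in control replicate 3 was the lowest at 97.6 CPM, with the others at 110 to 112 CPM. Mxi1 in control replicate 3 was the highest at 64.8 CPM, with the others at 59.4 to 59.6 CPM. Polr1b in control replicate 1 was the lowest at 107.8 CPM, with the others at 109.9 to 110.3 CPM. Gnl3 in control replicate 2 was the lowest at 262 CPM, with the others at 276 to 279 CPM. Bysl in control replicate 3 was the highest at 58.5 CPM, with the others at 51.8 to 52.4 CPM, and Rpf2 in the same sample was the highest at 81.0 CPM, with the others at 75.8 to 76.5 CPM. Bbc3 in conditioned-medium replicate 4 was the highest at 11.1 CPM, with the others at 9.99 to 10.1 CPM. Mycn in conditioned-medium replicate 4 was the lowest at 100.002 CPM, with the others at 103.2 to 103.4 CPM. Control replicate 3 held 4 of the 8.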

How the results depend on the processing

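Across 25 alternatives, run for the 40 members and 30 other named genes and not for the cell type markers, none of these genes past the threshold changed direction. Ncl had 24 alternatives, since it is among the 10 genes with the most counts that 1 of them removes. Of the 17 called members, 12 kept their call under every alternative other than the test against a 1.2-fold change, and of these 12 Mxd4 kept it there too. Against a 1.2-fold change, 227 genes, 1 member, 1 higher and 0 lower were called. At an adjusted p under 0.01, 2147 genes and 13 members were called (4 higher, 9 lower). DESeq2 called 2690 genes and 15 members (4 higher, 11 lower), as did the fit without a low-count filter for the members. Scaling by total counts gave a members' median log2 fold change of -0.0278 against -0.030 for all genes, and 40.7% of all calls were higher in place of 51.6%, with the members still at 4 higher and 13 lower. Without any 1 sample, 2635 to 3578 genes, 13 to 18 members, 4 to 5 higher and 9 to 13 lower were called, and the members' median was -0.0204 to 0.0064. With the replicate block, 3446 genes and 17 members were called, 4 higher and 13 lower, and 3 of 8 samples correlated best with their own number. Without control replicate 2 and conditioned-medium replicate 4, chosen after seeing the data, 3765 genes and 17 members were called (5 higher, 12 lower), with Noc3l gained (adjusted p = 0.0406) and Polr1b at 0.062 (edgeR). The cause of these shifts was not tested. The lowest count of any member in any sample was 595.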
